A study of Cucumis x hytivus and Cucumis hystrix and Cucumis sativus with 8 samples.

Results

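The microRNA miR390 was followed in the leaves of a Cucumis hybrid species with doubled genomes and of the diploids it was made from. The members were all entries of the deposited miRNA table whose name holds miR390 followed by a character that is not a digit, taken once per mature sequence. They came to 9 of the table's 733 mature sequences, on 17 of its 843 lines. Small RNA was profiled in 8 libraries, 2 for each of 4 groups. The first group was the young leaf, the uppermost leaf of the plant, of the synthetic allotetraploid Cucumis ×hytivus, from plants of the selfed generation S10. The other groups were mature leaves, the first to be fully developed, of the same allotetraploid, of the diploid C. hystrix and of the diploid cucumber C. sativus cultivar BeijingJietou. Plants of every group were raised in climate chambers, and no young leaf of either parent is among the samples. The labels do not say whether the 2 libraries of a group came from different plants. The p-values therefore reflect the spread among these libraries alone, and that spread may be technical. The labels' protocols name oligo(dT) beads, which select polyadenylated RNA, and describe no separate selection of small RNA.

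Plant miR390 is the trigger of a small RNA cascade. In Arabidopsis it is loaded into the Argonaute protein AGO7 and directs the cutting of the non-coding TAS3 transcripts, whose fragments are turned into trans-acting siRNAs. Some of these, the tasiARFs, restrain the auxin response factors ARF3 and ARF4, and through them leaf polarity, leaf expansion and the passage from juvenile to adult leaves. The guide strand lies on the 5p arm of the precursor hairpin, and the partner strand on the 3p arm is usually discarded. TAS3 transcripts, tasiARFs and AUXIN RESPONSE FACTOR mRNAs were not analysed here.

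The 9 sequences are shown because they separate into a guide, its partner strand and a pair of unlike entries, and the results below differ between these kinds. Each is written 5′ to 3′ as DNA letters, as in the table, with the seed (bases 2 to 8) in capitals.

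miR390a: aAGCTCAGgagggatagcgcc
miR390a-5p: aAGCTCAGgagggatagcgcct
miR390d-p3: cGCTATCCatcctgagtttcc
miR390c-p3: cGCTATCCatcctgagtttc
miR390b-p3: cGCTATCCatcctgagtttcct
miR390d-3p: cGCTATCCatcctgagtttt
miR390a-p3: cGCTATCTatcctgagtttca
miR390-p3: cGGCGCTAtccctcctgagct
miR390d-p5: tCAGGATGgatagcgccgcg

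All 9 entries fall under 5 seeds, and 0 other entries of the table share any of them. The seed AGCTCAG belongs to the guide miR390a, of 21 nt, and to miR390a-5p, the same sequence with 1 more base at its 3′ end. The seed GCTATCC is shared by 4 entries of the 3p arm, miR390c-p3, miR390d-p3, miR390b-p3 and miR390d-3p, of 20 to 22 nt. The first 3 of these differ only in where they end, while the substitution from miR390d-p3 to miR390d-3p is C20T, counted from the 5′ end. miR390a-p3 is the only entry with the seed GCTATCT, and the substitutions from it to miR390d-p3 are T8C and A21C. The table lists miR390a as a sequence already in miRBase, miR390a-5p and miR390d-3p as different sequences of a miRNA listed there, and the other 6 entries as new.

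The guide and the 3p entries were folded together as a duplex with RNAduplex. miR390a and miR390d-p3 form 18 base pairs over guide bases 1 to 19, with guide base 11 unpaired and 2 bases overhanging at each 3′ end. Such 2-base overhangs are the usual product of a Dicer-like enzyme. The predicted energy was −29.1 kcal/mol for miR390d-p3 and −27.2 kcal/mol for miR390a-p3, which pairs over the same bases. miR390c-p3 and miR390d-3p leave 1 base overhanging on the partner strand, and miR390b-p3 leaves 3. The last 2 entries are arranged otherwise. miR390-p3 shares a run of 20 bases with the reverse complement of miR390a, and miR390d-p5 shares a run of 15 bases with the reverse complement of the GCTATCC entries.

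The 17 lines point to 4 places in the genome, printed as the table lists them. The sources used here name no genome build. No annotation was used, so a hairpin's place relative to genes is not given. The places are chr1:18955990-18956128 (plus strand), chr3:27385901-27386097 (both strands), chr4:13051747-13051947 (both strands) and chr6:11751222-11751402 (minus strand), and they span 139, 197, 201 and 181 bp. miR390a was listed at all 4. miR390d-p3 was listed on chromosome 4 and miR390c-p3 and miR390d-3p on chromosome 3. miR390a-p3 was listed on chromosomes 1 and 6, miR390b-p3 on 1 and 4, and miR390a-5p on 3 and 6. The 10 hairpins, which overlap within the 4 places, were 95 to 133 nt long (median 125.5, against 138.5 over the 568 hairpins of the table). Their CG content was 38.7 to 53.2% (median 50.2%, against 36.65% over the table) and their folding energy −67.1 to −37.4 kcal/mol (median −56.8, against −49.15). The listed MFEI, which scales folding energy for length and CG content, lay the other way, with a median of 0.85 against 1.0. On chromosomes 3 and 4 the hairpins of miR390-p3 and miR390d-p5 overlap those of the other entries on the opposite strand.

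Listed reads numbered 177757 to 1186178 per library, on 335 to 562 sequences. The second C. sativus library stood apart. It had the fewest reads and a TMM scaling factor of 2.00, against 0.762 to 1.25 in the other 7 libraries. Families that resemble fragments of rRNA or tRNA took 46.5% of its reads, against 2.89 and 3.52% in young leaves, 9.41 and 8.11% in mature C. ×hytivus, 6.22 and 7.58% in the C. hystrix libraries and 13.7% in the first C. sativus library. Spearman's rho between the 2 libraries of a group was 0.952 in young leaves, 0.841 in mature C. ×hytivus, 0.823 in C. hystrix and 0.572 in C. sativus. Results that rest on C. sativus, or on the spread estimated over all 8 libraries, are therefore given with and without its libraries.

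A sequence listed at several places has the same value on each of its lines. Multiplied by the number of lines, 90 of the 102 miR390 values above 0 are whole numbers within 1e-06, against 34 as listed. Reads below are added over the lines of a sequence. They put the entries on a common scale if the table splits reads over lines, which the sources used here do not state. Values in CPM, counts scaled to the TMM-adjusted library size, take the value of 1 line, as the tests do. They serve only to compare a sequence, or the same sum of sequences, between libraries. Sums in CPM add these values, so sequences on several lines may weigh less in them.

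miR390 as a whole was most abundant in young leaves of the allotetraploid. It had 1430 and 896 reads in the young libraries, against 117 and 95 in those of mature C. ×hytivus. C. hystrix had 181 and 59.5 reads, and C. sativus 249.5 and 10. As a share of all listed reads these were 0.121% and 0.105% in young leaves (exact 95% binomial intervals 0.114–0.127 and 0.0978–0.112) and 0.0250% and 0.0112% in mature leaves of the allotetraploid (0.0207–0.0300 and 0.00903–0.0137). C. hystrix stood at 0.0197% and 0.0107% and C. sativus at 0.0614% and 0.00563%, where 10 reads gave the second library an interval of 0.00270 to 0.0103%. Both young libraries thus lay above all 6 mature ones, and the libraries of the 3 mature groups overlapped. These intervals cover counting error only, and fractional reads were rounded for them.

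With reads added over lines, the guide miR390a carried most of this signal, 2241 of 3038 miR390 reads (73.8%). That share depends on how lines are added, since miR390a is on 4 lines and miR390d-p3 on 1. miR390a had 1145 and 739 reads in young leaves, against 70 and 38 in mature leaves of the allotetraploid. C. hystrix had 81 and 19 reads of it, and C. sativus 147 and 2. In CPM it was at 724.8 and 539.3 in young leaves and at 80.6 and 34.8 in mature leaves of the allotetraploid. C. hystrix was at 70.9 and 29.5 CPM, and C. sativus at 124.5 and 0. The last value comes from 0.5 reads per line, which was rounded to 0. The group means were 632 ± 131 CPM in young leaves, 57.7 ± 32.4 in mature C. ×hytivus, 50.2 ± 29.3 in C. hystrix and 62.3 ± 88.1 in C. sativus (SD, n = 2 each). The 3 mature means differ by less than the spread within their groups.

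**Figure D1:**
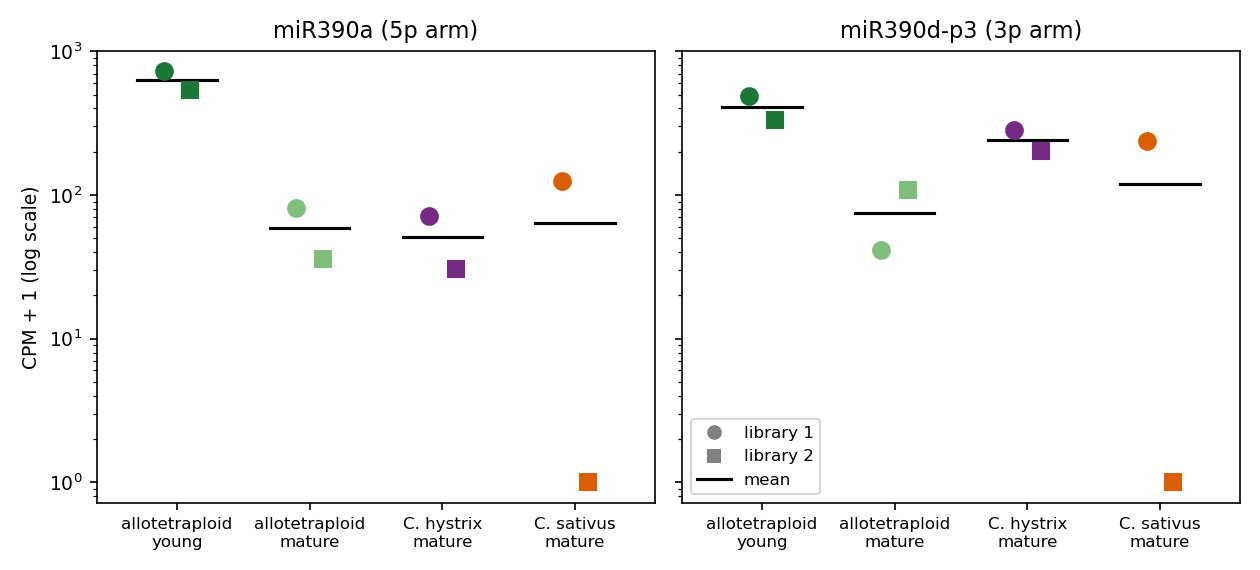
Level of miR390a (left) and miR390d-p3 (right) in each of the 8 libraries, in CPM plus 1 on a log axis, with circles and squares for the 2 libraries of a group and bars for the mean. miR390a sits at 539.3 and 724.8 CPM in young leaves and at or below 124.5 CPM in all 6 mature libraries; the second C. sativus library is at 0 for both entries.

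Between young and mature leaves of the allotetraploid the log2 difference of miR390a was 3.45 (SE 1.40). By the quasi-likelihood test of edgeR its unadjusted p was 0.025 and its adjusted p 0.27, so it did not pass the threshold of 0.05. Of the 2 miR390 entries with enough reads to be tested, 0 passed in this comparison, where 1.92% of the 208 tested entries passed. DESeq2 called 1 of the 2, miR390a (adjusted p 0.035), with 8.17% of all entries called, and limma called 0 of 2. The share of reads from rRNA- or tRNA-like families was also lower in both young libraries than in all 6 mature ones. With those families left out of the table miR390a stood at 3.43 (SE 1.24, adjusted p 0.13, edgeR). In a bulk sample, fewer cells that make a small RNA and less of it per cell cannot be told apart. With edgeR the outcome turned on C. sativus, whose libraries, also of mature leaf, lie outside this comparison. They help to set both the common spread and the filter on low counts. That filter kept 300 entries without the first C. sativus library and 303 without the second, against 208 with both. The parts of spread and filter were not told apart. Without the first C. sativus library both miR390 entries passed (miR390a 3.41, adjusted p 0.0013, edgeR; 10.7% of entries called), and without the second both passed again (3.40, adjusted p 0.0011; 7.92% called). With young and mature libraries of the allotetraploid fitted alone, miR390a stood at 3.44 (SE 0.63, adjusted p 0.00099, edgeR) and both entries passed, with 21.4% of entries called. Over all settings tried, the difference of miR390a lay between 3.09 and 3.91 and its adjusted p between 0.00099 and 0.84.

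The partner strand is led by miR390d-p3, with 530.5 reads or 17.5% of the miR390 reads added over lines. It had 192.5 and 113.5 reads in young leaves, against 9 and 31 in mature leaves of the allotetraploid. C. hystrix had 80.5 and 33.5 reads of it, and C. sativus 70 and 0.5. In CPM it stood at 409 ± 109 in young leaves, 74.1 ± 47.7 in mature C. ×hytivus, 242 ± 58.7 in C. hystrix and 118 ± 166.6 in C. sativus (SD, n = 2 each). Both young libraries (486.6 and 332.3 CPM) lay above all mature ones, and both C. hystrix libraries (283.4 and 200.4 CPM) lay above those of mature C. ×hytivus (40.3 and 107.8 CPM). The young against mature difference was 2.45 on the log2 scale (SE 1.39, adjusted p 0.51, edgeR). It passed without the first C. sativus library (2.29, adjusted p 0.029), without the second (2.27, adjusted p 0.030) and with the allotetraploid alone (2.35, adjusted p 0.019). The value itself rested on which mature library was kept, at 1.66 without the first library of mature C. ×hytivus and 3.45 without the second, and passed in neither. Its adjusted p ran from 0.019 to 1.00 over the settings tried.

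The other 7 entries did not pass the filter on low counts, and each held at most 3.09% of the miR390 reads. miR390a-5p, the guide with the extra base, had 38 and 20 reads in young leaves, 5 and 3 in mature C. ×hytivus, 16 and 2 in the C. hystrix libraries, and 10 and 0 in those of C. sativus. The longer partner miR390b-p3 had 31 and 5 reads in young leaves and at most 7, in the first C. sativus library, among mature leaves. The shorter partner miR390c-p3 had 16.5 and 7.5 reads in young leaves and at most 3.5 in the mature libraries. All 3 had their highest count in the first young library, the deepest of the 8. miR390d-3p had 7 reads in all, with 3 in the first young library and 2 in the second C. sativus library. Sequences of 21 nt made up 88.2 to 96.4% of miR390 reads in 7 libraries, and 35% of the 10 reads of the second C. sativus library.

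Summed over each arm, the 5p entries showed the larger difference with leaf age. The 5p sum was 3.27 log2 units higher in young than in mature leaves of the allotetraploid (SE 1.37, adjusted p 0.27), at 670 ± 145 CPM against 69.1 ± 28.9 CPM (SD, n = 2 each). The 3p sum was 1.88 log2 units higher (SE 1.11, adjusted p 0.53), at 479 ± 146 CPM against 130 ± 12.9 CPM. Both sums add the value of 1 line per sequence, so their CPM are not to be compared between the arms. With reads added over lines the 5p sum differed by 3.45 (SE 1.31) and the 3p sum by 1.59 (SE 1.05). The 3p sum includes miR390-p3, which is listed on the opposite strand. With the opposite-strand entries left out, the 5p sum differed by 3.39 (SE 1.39) and the 3p sum by 2.34 (SE 1.15). In the main fit neither sum passed in edgeR's quasi-likelihood test. With the allotetraploid alone in the fit both passed (5p sum 3.22, adjusted p 0.0032, and 3p sum 1.79, adjusted p 0.042, edgeR). Without the first C. sativus library the 5p sum stood at 3.23, and without the second at 3.21. As for miR390a, the outcome turned on which libraries were in the fit. The difference between the arms was not tested. Both sums were higher in young leaves under all 21 settings tried.

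**Figure D2:**
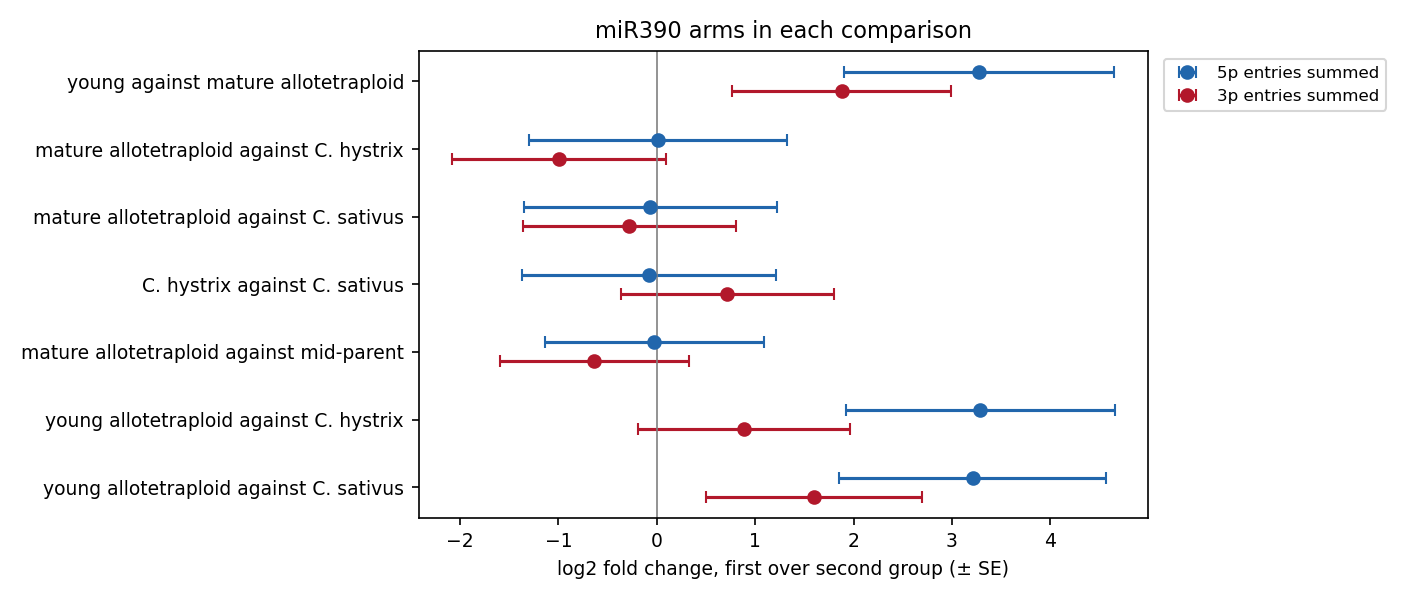
Log2 difference, first group over second, of the summed 5p entries (blue) and summed 3p entries (red) of miR390 in each comparison, with bars of 1 SE. The 3 comparisons with young leaves have 5p values above 3, and the 4 among mature leaves have 5p values between −0.08 and 0.01.

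Comparisons among mature leaves set the allotetraploid and its parents side by side at the same leaf stage. Joined genomes, ploidy and generations of selfing differ together between the allotetraploid and the diploids and cannot be told apart. The 2 tested miR390 entries gave 0 calls in all 4 comparisons among mature groups. The share of all entries called by edgeR was 0% for the allotetraploid against C. hystrix, 0.481% against C. sativus, 0% against the mid-parent and 0.962% for C. hystrix against C. sativus. At an unadjusted p under 0.05 the miR390 count was also 0 in these 4 comparisons, and DESeq2 and limma called 0 of 2 as well. miR390a differed by 0.17 (SE 1.33) between mature C. ×hytivus and C. hystrix, by −0.15 (SE 1.31) between mature C. ×hytivus and C. sativus, and by 0.01 (SE 1.16) from the mid-parent, that is, the log-scale average of C. hystrix and C. sativus. Standard errors of this size leave differences of several fold undetectable. The partner strand miR390d-p3 stood at a log2 difference of −1.70 (SE 1.36, adjusted p 0.98) in mature C. ×hytivus against C. hystrix, at −0.68 (SE 1.34) against C. sativus and at −1.19 (SE 1.22) against the mid-parent. Against C. hystrix it was −0.97 without the first library of mature C. ×hytivus and −2.72 without the second. Between the parents, C. hystrix over C. sativus, miR390a stood at −0.32 (SE 1.32) and miR390d-p3 at 1.02 (SE 1.33, adjusted p 0.96).

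The comparisons with C. sativus rested on which of its libraries was kept. Without the first, where C. sativus is the library with 0 rounded reads of both entries, both were called higher in mature C. ×hytivus (adjusted p 0.012 for miR390a and 0.0079 for miR390d-p3, edgeR; 18.3% of all entries called) and higher in C. hystrix (adjusted p 0.016 and 0.0010; 15% called). Fitted differences against a value of 0 are no measure of size and are not given here. Without the second library 0 of 2 were called in either comparison, with miR390a at −0.89 (SE 0.81) for mature C. ×hytivus and −1.02 (SE 0.81) for C. hystrix against C. sativus. miR390d-p3 was then at −1.31 for mature C. ×hytivus and 0.30 for C. hystrix against C. sativus.

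The young allotetraploid was also set against each parent, where leaf age and species differ together and cannot be told apart. These comparisons share the young libraries with the comparison of leaf ages. miR390a differed by 3.62 (SE 1.41, unadjusted p 0.020, adjusted p 0.31) from C. hystrix and by 3.30 (SE 1.39, unadjusted p 0.029, adjusted p 0.20) from C. sativus, with 0 of 2 miR390 entries called by edgeR and 1.44% of all entries called in each. miR390d-p3 stood at 0.76 (SE 1.32) against C. hystrix and 1.78 (SE 1.35) against C. sativus. DESeq2 called miR390a in both (adjusted p 0.038 with 5.77% of entries called, and 0.040 with 13.5% called), and limma in neither. Against C. hystrix edgeR called miR390a, but not miR390d-p3, without the first C. sativus library (3.53, adjusted p 0.0016; 7.67% called), without the second (3.53, adjusted p 0.0014; 7.92% called) and with both groups fitted alone (3.56, adjusted p 0.016; 13.6% called). Against C. sativus both entries were called without its first library (23% of entries called) and 0 without its second. Over the settings tried the adjusted p of miR390a ran from 0.0014 to 1.0 against C. hystrix and from 6.9e-05 to 0.66 against C. sativus.

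The share of miR390 reads that came from the 3p arm was lowest in young leaves. It was 17.3% and 15.3% in the young libraries (exact 95% intervals 15.3–19.3 and 13.0–17.8) and 35.9% and 50.5% in mature leaves of the allotetraploid (27.2–45.3 and 40.1–60.9). C. hystrix had 46.4% and 64.7% (39.0–54.0 and 49.9–75.4), and C. sativus 37.1% and 80% (30.8–43.1 and 44.4–97.5). The intervals of both young libraries lay below those of all 6 mature libraries. The group means were 16.3 ± 1.40% in young leaves, 43.2 ± 10.3% in mature C. ×hytivus, 55.6 ± 12.9% in C. hystrix and 58.5 ± 30.4% in C. sativus (SD, n = 2 each). With 2 libraries against 2 no exact permutation test can pass the threshold, so none was made.

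**Figure D3:**
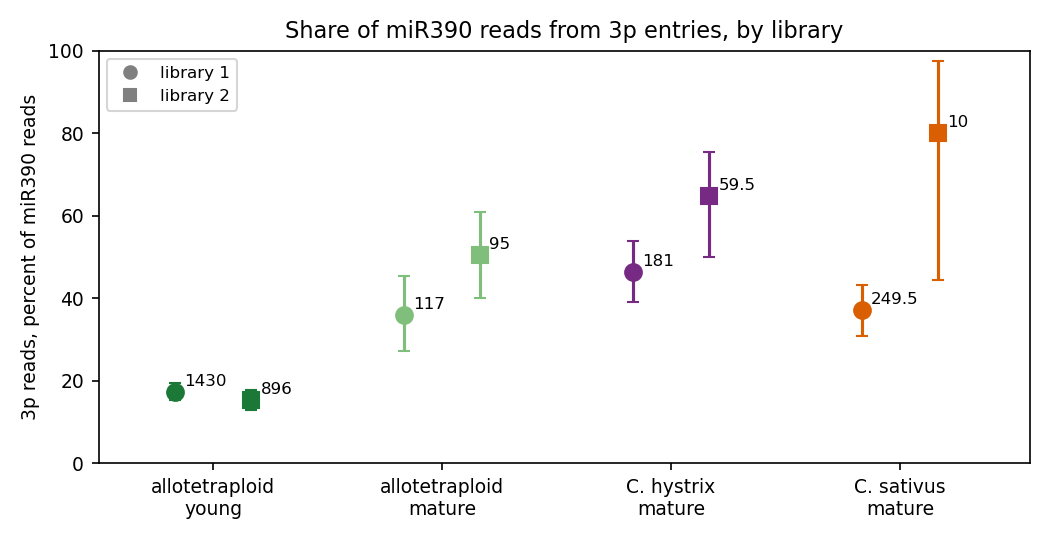
Share of miR390 reads from 3p entries in each library, in percent, with exact 95% binomial intervals and the number of miR390 reads beside each point. Young leaves sit at 15.3 and 17.3%, and the 6 mature libraries between 35.9 and 80%, the last from 10 reads.

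The pair of tested strands shows which libraries carry this. For each read of the guide miR390a there were 0.168 and 0.154 reads of miR390d-p3 in young leaves, and 0.129 and 0.816 in mature leaves of the allotetraploid. The ratio was 0.994 and 1.76 in the C. hystrix libraries and 0.476 and 0.25 in those of C. sativus. The first mature allotetraploid library lay below both young ones, so by this ratio the allotetraploid leaf ages overlapped. Its higher 3p share came in part from miR390-p3, listed on the opposite strand. With the 2 opposite-strand entries left out the 3p share was 17.3% and 14.9% in young leaves and 21.1% and 44.6% in mature leaves of the allotetraploid. C. hystrix had 46.1% and 64.7% and C. sativus 35.0% and 77.8%, so by value the 6 mature libraries still lay above both young ones. No intervals were computed for these shares. It is therefore not shown that the first mature allotetraploid library, at 21.1%, differs from the young ones beyond counting error. The level of the share depends on how lines are added. With each sequence taken once it was 42.9% and 39.8% in young leaves and 57.4% to 91.7% in mature leaves.

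**Figure D4:**
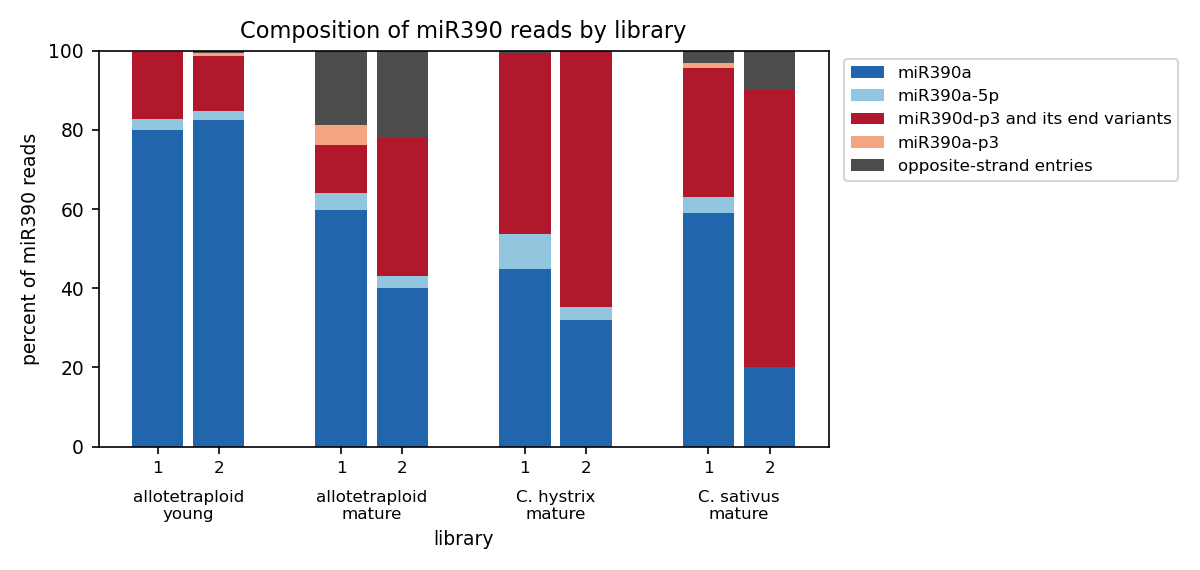
Composition of the miR390 reads of each library, in percent, by entry: the guide miR390a, its longer form miR390a-5p, the GCTATCC entries of the 3p arm, miR390a-p3, and the entries listed on the opposite strand. The opposite-strand entries take 0 and 0.446% in young leaves, and 18.8 and 22.1% in mature leaves of the allotetraploid.

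miR390-p3, unlike the guide, had more reads in mature than in young leaves of the allotetraploid. It had 0 and 4 reads in young leaves, against 22 and 15 in mature leaves of the allotetraploid. C. hystrix had 1 and 0 reads of it, and C. sativus 8 and 1. miR390d-p5, the other opposite-strand entry, had 6 reads, all in the second library of mature C. ×hytivus. Together they took 0 and 0.446% of miR390 reads in young leaves, where the exact 95% upper bounds were 0.258 and 1.14%, against 18.8% and 22.1% in mature leaves of the allotetraploid (12.2–27.1 and 14.2–31.8). In C. hystrix they took 0.552% and 0%, and in C. sativus 3.21% and 10%. With 4 reads in young leaves and 37 in mature leaves of the allotetraploid, miR390-p3 was 14.3 times as frequent per listed read in the mature leaves (95% interval of counting error 5.15–55.4). It was 41.4 times as frequent in mature C. ×hytivus as in C. hystrix, where it had 1 read (6.99–1680), and 1.82 times as frequent as in C. sativus (0.864–4.29).

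With reads added over lines, miR390-p3 has enough reads to be tested. The young against mature difference was then −3.70 (SE 1.88, adjusted p 0.40) and that between mature C. ×hytivus and C. hystrix 4.83 (SE 2.14, unadjusted p 0.036, adjusted p 1.0, edgeR). Against the mid-parent it was 3.45 (SE 1.51, unadjusted p 0.034, adjusted p 0.99), so it passed in none of these. In the same fit miR390a-5p stood at 2.19 (SE 1.65, adjusted p 0.69) and miR390b-p3 at 3.34 (SE 1.94, adjusted p 0.50) between young and mature leaves. The duplex predicted between miR390-p3 and miR390a has 20 base pairs and no overhang on the guide, unlike that of the other 3p entries.

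At base 8, the last base of the seed, the 3p entries other than miR390-p3 come in a pair of forms. The entries miR390a-p3 and miR390b-p3 differ there, and both are listed on overlapping plus-strand hairpins of chromosome 1. The T form, miR390a-p3, had 20 reads against 626 of the C form, the 4 GCTATCC entries (3.10%, exact 95% interval 1.90–4.74). It had 4 and 7 reads in young leaves, 6 and 0 in mature C. ×hytivus, 0 and 0 in the C. hystrix libraries, and 3 and 0 in those of C. sativus. For the counts of 0 in C. hystrix the exact 95% upper bounds were 4.35% and 9.25% of its 83 and 38.5 reads of both forms. Over both libraries, with 0 of 121.5 reads, the upper bound was 2.98%. Fractional reads were rounded for these bounds. In the first library of mature C. ×hytivus the T form was 30% of 20 reads (11.9–54.3).

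The 5 tested entries of other families whose log2 CPM followed miR390a most closely were miR171a (Pearson's r 0.947), miR477b (0.941), miR171j-5p (0.938), miR171d-p5 (0.928) and miR393a-3p (0.915). These values describe 8 libraries that share depth and age differences, and 4 of the 5 were also among the 5 closest by Spearman's rho. By group means 3 of the 5 were, with miR477b in place 9 and miR171d-p5 in place 21. Like miR390a, miR477b and miR171d-p5 were at 0 CPM in the second C. sativus library. miR171a, whose family targets GRAS transcription factors of the SCARECROW-LIKE type, was at 1133 and 840 CPM in young leaves and 219 and 247 CPM in mature leaves of the allotetraploid. Its difference was 2.08 (SE 1.24, adjusted p 0.54). miR393a-3p, the partner strand of the miRNA that targets auxin receptors, was at 1019 and 1399 CPM in young leaves and 282 and 456 CPM in mature leaves of the allotetraploid (1.71, SE 1.16, adjusted p 0.59). The partner strand miR390d-p3 followed miR390a with r = 0.808, in place 19 among the tested entries.

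Other families of the auxin pathway were set beside miR390. miR393, which targets auxin receptors, summed to 1135 and 1542 CPM in young leaves, against 394.1 and 744.4 CPM in mature leaves of the allotetraploid. Both young libraries lay above both mature ones of the allotetraploid. miR393 summed to 758 and 849 CPM in C. hystrix and to 1373 and 3183 CPM in C. sativus. Unlike for miR390a, the young libraries thus did not lie above all mature ones. miR167, which targets auxin response factors, summed to 14499 and 13657 CPM in young leaves and to 12608 and 15636 CPM in mature leaves, so the groups overlapped. miR160, which also targets such factors, summed to 155 and 187 CPM in young leaves and 148 and 83.5 CPM in mature leaves. With 70.9 and 76.6 CPM in C. hystrix and 47.1 and 5.06 CPM in C. sativus, its young libraries lay above all mature ones. Of the 33 entries of these families (miR847 is not listed), 16 were tested, and 0 passed between leaf ages, where 1.92% of all entries passed. At that share a list of this size has few calls or none, so the count says little about it. With the allotetraploid alone in the fit 1 of 15 passed, with 21.4% of all entries called. The median difference of the 16 was 0.33, against −0.03 over all 208 entries. Families of the small RNA machinery, miR162 and miR168 among them, which target DICER-LIKE and ARGONAUTE mRNAs, had 5 tested entries with 0 calls against the same 1.92%, and a median difference of 0.72.

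Families known from other parts of the shoot were set beside the leaf comparison. Those of the shoot apex or leaf primordia (25 entries of miR164, miR319 and miR394, with miR165 not listed) summed to 9189 and 11508 CPM in young leaves and 9817 and 7465 CPM in mature leaves of the allotetraploid. Of their 10 tested entries 0 passed, beside 1.92% of all entries, and the median difference was 0.53, against −0.03 over all entries. Families found in phloem sap, which leaves also express, summed to 2266 and 1446 CPM in young leaves and 55801 and 10428 CPM in mature leaves. Most of this sum came from miR398 and miR408, which target mRNAs of copper proteins. miR398 was at 1483 and 1006 CPM in young leaves, against 33770 and 4786 CPM in mature leaves, and miR408 at 291 and 84.5 CPM against 21323 and 4929 CPM. miR2111 of the same list lay the other way, at 279 and 210 CPM in young leaves and 134 and 87.0 CPM in mature leaves, and so did miR399, at 43.1 and 49.6 CPM against 40.3 and 24.3 CPM. Of the 11 tested entries of the list 2 passed, both lower in young leaves, beside 1.92% of all entries. They were miR408 (−5.95, SE 1.39) and miR408-5p (−7.39, SE 1.56, adjusted p 0.029 for both, edgeR). Neither passed when scaled to conserved families (adjusted p 0.076 for both), without the first young library (0.20) or without the second (0.33). The part of these families in the miR390 difference was not tested.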

How the data were processed

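Values came from 1 deposited table of listed miRNAs. Per the file headers its main values are raw reads. As some hold fractions, these deposited values were taken as estimated counts and rounded for the tests. The authors' normalized reads, a signal equal to the raw reads times 1 constant per library, served only as an alternative scaling. Hairpin CG content is a percent per the file headers. Per the submitters' processing notes, Bowtie 0.12.8 was used. The sources used here do not give the build, the mismatches allowed or the counting rule.

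Each sequence was taken once, with the value of 1 line. filterByExpr kept 208 of 733 entries. After TMM scaling, edgeR 4.0.16 in R 4.3.3 fitted all 8 libraries (quasi-likelihood, robust) by group alone, leaving 4 residual degrees of freedom. Two-sided p-values were adjusted by Benjamini-Hochberg over the tested entries of a comparison, at a threshold of 0.05. An SE is the log2 difference over the root of its F statistic. The common dispersion was 0.596. For arm sums the miR390 entries were replaced by 1 row per arm, 3p where the name holds -3p or -p3. DESeq2 1.42.0, limma 3.58.1 and other settings were alternatives. The fit was also run on simulated counts that shared the common dispersion and held no library of unlike composition. That run does not bear on the calls that turned on C. sativus. Duplexes came from RNAduplex of ViennaRNA 2.7.2. Listed reads per library ranged from 177757 to 1186178.

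The named entries were all miR390 entries, the 5 tested entries of other families with the highest Pearson correlation of log2 CPM (prior count 2) with miR390a, and lists of families by number. The members and lists were chosen with earlier results of these data known.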

Additional observations from a re-analysis of the deposited data

How the results depend on the processing

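The 5p and 3p sums of miR390 kept their direction for young leaves against all 3 mature groups under every setting tried, and the calls changed with the tool, the libraries in the fit and the C. sativus libraries. DESeq2 called 1 miR390 entry in each young comparison. With only the groups compared in the fit, 2 were called against mature C. ×hytivus (5p sum 3.22, 3p sum 1.79, both past the threshold) and 1 against C. hystrix (5p sum 3.23). DESeq2 put the 5p sum past the threshold against C. sativus (3.24). Leaving out 1 library at a time, 0 to 2 entries were called in the comparisons of young with mature allotetraploid and with C. sativus, of mature C. ×hytivus with C. sativus and of C. hystrix with C. sativus, and 0 to 1 for young leaves against C. hystrix. The calls came without either C. sativus library, and for C. sativus itself only without its first. The mean 3p share with each sequence once was 41.4% in young leaves, 65.9% in mature C. ×hytivus and 80.7% in C. hystrix, and with opposite-strand entries left out it was 32.8% in mature C. ×hytivus.

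Among mature groups the 5p sum is near 0 and its sign turned. For mature C. ×hytivus against C. hystrix it was −0.021 with RLE scaling, −0.015 with DESeq2, −0.014 with the authors' constants, −0.0086 with a filter of 10 reads in 2 libraries, −0.21 without a filter (miR390a −0.032) and −0.10 without opposite-strand entries. With limma it was 1.16 for mature C. ×hytivus against C. sativus, 1.03 for C. hystrix against C. sativus and 0.65 for mature C. ×hytivus against the mid-parent. The first of these also turned for the 3p sum (0.39), miR390a (0.97) and miR390d-p3 (0.81), and the second for miR390a (0.79). With the groups compared only, the 5p sum was 0.12, 0.092 and 0.041 in the same 3 comparisons, and miR390a 0.0019 in the first. The 3p sum of C. hystrix against C. sativus was −0.31 scaled to conserved families and −0.030 by plain library size. miR390a against the mid-parent was −0.071 with RLE, −0.080 with conserved families, −0.050 with plain library size, −0.21 without a filter, −0.014 with the 10-read filter, −0.060 with DESeq2, −0.10 with reads added over lines, −0.14 with the authors' constants and −0.025 without fragment-like families. The cause was not tested.

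Without 1 library each, the 5p sum ran from 3.01 to 3.53 (young against mature), −0.51 to 0.86 (mature allotetraploid against C. hystrix), −0.91 to 7.21 (against C. sativus), −0.46 to 3.59 (against the mid-parent), −0.89 to 7.24 (C. hystrix against C. sativus), 2.73 to 4.14 (young against C. hystrix) and 2.31 to 10.44 (young against C. sativus). The 3p sum ran from −0.94 to 1.96 for mature C. ×hytivus against C. sativus, −0.95 to 0.49 against the mid-parent, 0.027 to 2.93 for C. hystrix against C. sativus and 0.82 to 3.73 for young against C. sativus. miR390a ran from −0.34 to 0.84 for mature C. ×hytivus against C. hystrix, −0.89 to 6.94 against C. sativus, −0.46 to 3.53 against the mid-parent and −1.02 to 6.82 for C. hystrix against C. sativus. miR390d-p3 ran from 1.66 to 3.45 for young against mature, −2.72 to −0.97 for mature C. ×hytivus against C. hystrix, −1.46 to 7.44 against C. sativus, −2.09 to 2.91 against the mid-parent, 0.30 to 9.06 for C. hystrix against C. sativus, 0.44 to 0.97 for young against C. hystrix and 0.97 to 9.73 for young against C. sativus. The highest values against C. sativus rest on its second library alone, at 0 rounded reads, and are no measure of size; a lone library is assumed to vary like the other groups.

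Over all entries edgeR called 4 between leaf ages (0 to 43 over the settings), 1 for mature C. ×hytivus against C. sativus (0 to 55), 2 for C. hystrix against C. sativus (1 to 45), 0 against the mid-parent (0 to 22), and 3 each for young against C. hystrix (0 to 25) and C. sativus (0 to 69). Deviations of same-numbered libraries correlated with r = 0.33 between young leaves and C. hystrix. In the other pairs of groups r lay between −0.046 and 0.023. These values cannot settle whether the numbers pair the libraries, since each group has only 2. With the replicate block the 5p sum was 0.60 for mature C. ×hytivus against C. sativus (3p sum 0.13, miR390a 0.44), 0.40 against the mid-parent and 0.40 for C. hystrix against C. sativus (miR390a 0.21). The planned arm assignment by position in the precursor was not run, since no precursor sequence was used here. The 10 miR390 reads of the second C. sativus library limit every statement on that group.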

Other observations

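Entries that mirror another entry on the opposite strand were counted over the whole table. Of the 733 sequences, 36 (4.91%) share a run of at least 18 bases with the reverse complement of another listed sequence. They include 3 of miR390 (miR390a, miR390a-5p and miR390-p3), 3 of miR168, 3 of miR169, 2 of miR398, 1 of miR7129 and 24 entries with no family number. The strand on which small RNAs were read was not tested.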
